A study of Rattus norvegicus with 12 samples.

Results

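INS-1E cells, a clonal rat insulinoma line used as a β-cell model, were compared after a prolonged weak and an acute strong cytokine exposure. The weak exposure (IL-1βlow) was IL-1β at 10 pg/ml for 72 h, and the strong one (CYT) was IL-1β at 100 pg/ml together with IFN-γ at 5 ng/ml for 16 h. Of the 12 polyA RNA libraries of the series, the 6 of these groups were compared, 3 against 3. The other 6 libraries, 3 of untreated cells and 3 of cells that received IL-1βlow and then CYT (IL-1βlow + CYT), served as reference levels. All cells were of wild-type genotype and were kept in RPMI medium with 11 mM glucose. IL-1βlow was topped up with the cytokine at 24 h intervals in the same medium, and CYT was given in fresh medium. The sources do not say whether IL-1βlow cells that were not challenged spent the last 16 h in fresh medium. The dose of IL-1β, the duration and the presence of IFN-γ differed between the groups, as may the renewal of medium, and their parts in any difference cannot be told apart. A gene entered the comparison if it exceeded 1 CPM (a gene's counts scaled to the total of its library) in at least 2 of the 12 libraries, which left 14324 of the 34034 genes in the deposited table. Every log2 difference below is IL-1βlow minus CYT, with its standard error. A gene passed when its adjusted p was under 0.01 and its log2 difference was above 1 or below -1.

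IL-1β binds the IL-1 receptor and activates NF-κB, which drives genes for chemokines, survival factors and its own inhibitors. IFN-γ acts through JAK kinases on interferon regulatory factors, antigen presentation genes and antiviral effectors. In β-cells the combination is known to induce the inducible nitric oxide synthase Nos2, to provoke stress of the endoplasmic reticulum (ER) and to lower transcripts that define the differentiated β-cell. IL-1β at low doses is known to act on the same receptor without the interferon arm.

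The groups differed across a large part of the transcriptome. Of 14324 genes, 2731 passed (19.1%), of which 1407 (9.82%) were higher in IL-1βlow and 1324 (9.24%) were higher in CYT. At an adjusted p under 0.01 without a minimum difference, 3131 genes were higher in IL-1βlow and 3366 were higher in CYT. Differences towards CYT reached further, since 166 genes were more than 16-fold higher in CYT and 26 more than 16-fold higher in IL-1βlow. More than 4-fold differences were met by 498 and 339 genes, respectively. Where the lower group had 3 counts or fewer in every library, the fitted fold depends on the prior count of the fit. This was so for 88 genes towards CYT and 37 towards IL-1βlow. The median log2 difference of genes that passed was 1.52 towards IL-1βlow and -1.67 towards CYT, against 0.02 over all genes tested. All 3 IL-1βlow libraries lay above all 3 CYT libraries for 4557 genes (31.8%), and all 3 CYT libraries lay above for 4500 genes (31.4%). When the test asked for a difference beyond 2-fold itself (edgeR's glmTreat), 456 genes were higher in IL-1βlow and 766 were higher in CYT. Of the 120 genes named in the results that passed, 25 did not pass this stricter test, all of them with log2 differences between -1.35 and 1.53.

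**Figure D1:**
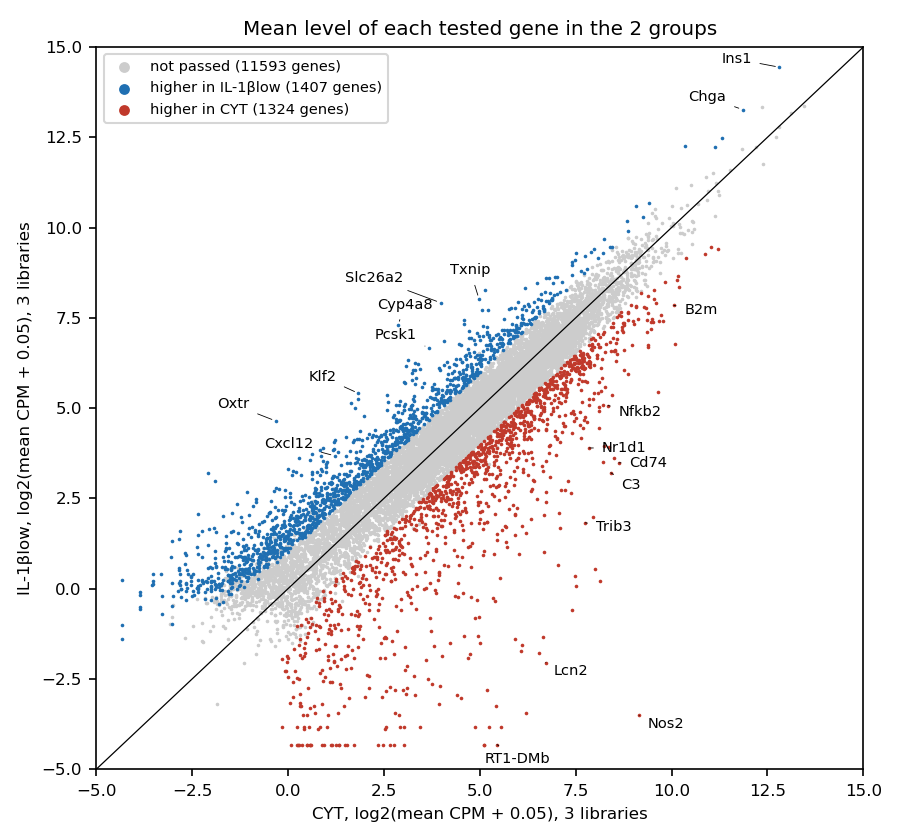
Mean CPM of each of the 14324 tested genes in the 3 CYT libraries (x axis) and the 3 IL-1βlow libraries (y axis), both as log2 of the mean plus 0.05. Blue points are the 1407 genes higher in IL-1βlow, red points the 1324 genes higher in CYT, and grey points the 11593 genes that did not pass. The red points reach farther from the diagonal than the blue ones, and several lie at the lower edge, where no IL-1βlow library held more than a few counts.

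Most genes on the IL-1βlow side were near their untreated level in IL-1βlow cells. Genes higher in IL-1βlow had a median log2 difference from untreated cells of 0 in IL-1βlow and of -1.57 in CYT. Genes higher in CYT had medians of 0.04 and 1.74. Both contrasts with untreated cells share their libraries with the main comparison, so these medians are given as a description. Against untreated cells, 3096 genes (21.6%) passed in CYT, and 62 genes (0.433%) passed in IL-1βlow, where the minimum log2 difference was 0.6. The 1407 genes higher in IL-1βlow held 10.6 to 11.2% of normalised counts in the IL-1βlow libraries and 3.74 to 4.38% in the CYT libraries. The same genes held 11.3 to 12% in untreated and 7.23 to 7.92% in IL-1βlow + CYT libraries. The 1324 genes higher in CYT held 3.44 to 3.68% in IL-1βlow, 10.9 to 12.5% in CYT, 3.34 to 3.36% in untreated and 5.71 to 6.17% in IL-1βlow + CYT libraries.

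The 6 libraries held 15868003 to 19488861 counts each, and the biological coefficient of variation was 0.123. TMM factors lay between 0.9676 and 1.025, and the ribosomal RNA gene Rn45s took 7.87 to 9.85% of counts. The β-cell label was checked against 8 markers, whose summed level was 30302 to 34038 CPM in IL-1βlow and 10943 to 11186 CPM in CYT, against 33145 to 41848 CPM in untreated cells. No β-cell marker was at 3 counts or fewer in every library. Of 10 macrophage and leukocyte markers, 7 were at 3 counts or fewer in every library of either group, and the list summed to 1.05 to 1.39 CPM in IL-1βlow and 2.42 to 3.62 CPM in CYT. Endothelial markers summed to 42.5 to 57.6 and 72.4 to 93.6 CPM and moved with Plvap, with 5 of 8 at 3 counts or fewer in every library of each group. Acinar and ductal markers summed to 253 to 314 and 596 to 775 CPM, nearly all of it the keratin Krt7, with 7 of 10 at 3 counts or fewer. Fibroblast and stellate markers summed to 14.1 to 16.8 and 6.88 to 7.34 CPM, with 4 of 8 at 3 counts or fewer. Markers of other islet endocrine cells summed to 155 to 266 and 24.6 to 64.5 CPM, nearly all of it Gcg, which encodes glucagon. The part of other cell types in the results was not tested.

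Among abundant genes that passed without overlap, those named here for large differences in favour of IL-1βlow had varied functions. Oxtr, the oxytocin receptor, was 21.2, 23.9 and 29.7 CPM in the IL-1βlow libraries and 0.761, 0.874 and 0.613 CPM in the CYT libraries (log2 difference 5.05 ± 0.22, adjusted p = 2.8e-10). It was the largest difference among genes named by the rule for abundant transcripts, although Oxtr in IL-1βlow was itself below the untreated mean of 52.9 ± 7.55 CPM. The cytochrome P450 gene Cyp4a8 was 180, 133 and 158 CPM in the IL-1βlow libraries and 10.8, 6.24 and 4.7 CPM in the CYT libraries (log2 difference 4.44 ± 0.27, adjusted p = 6e-09). Slc26a2, a sulfate transporter, was 194, 233 and 297 CPM in the IL-1βlow libraries and 19.1, 13.1 and 14.9 CPM in the CYT libraries (log2 difference 3.94 ± 0.19, adjusted p = 6.8e-10). For each of these genes the lowest IL-1βlow library was at least 10 times the highest CYT library. Klf2, a transcription factor that restrains inflammatory programmes in several cell types, was 38.3, 48.9 and 40 CPM in IL-1βlow against 3.59, 3.96 and 2.96 CPM in CYT (log2 difference 3.6 ± 0.19, adjusted p = 2e-09). Stc1, the secreted glycoprotein stanniocalcin 1, was 231, 304 and 399 CPM in IL-1βlow against 40.6, 32.6 and 31.3 CPM in CYT (log2 difference 3.16 ± 0.19, adjusted p = 6.7e-09). Mfsd2a, a lysophospholipid transporter, was 66.3, 81.5 and 78.8 CPM in IL-1βlow against 13.2, 9.21 and 7.11 CPM in CYT (log2 difference 2.94 ± 0.17, adjusted p = 4e-09). Tmem215, a transmembrane protein gene, was 157, 178 and 182 CPM in IL-1βlow against 27.9, 20.7 and 23.4 CPM in CYT (log2 difference 2.84 ± 0.11, adjusted p = 1.2e-10). The rule that named these 7 genes required that the groups not overlap. In IL-1βlow + CYT cells their levels lay between those of both groups, for example 94.6 ± 15 CPM for Slc26a2 and 34.2 ± 7.82 CPM for Klf2.

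Txnip, which encodes an inhibitor of thioredoxin that responds to glucose, was 245, 285 and 246 CPM in the IL-1βlow libraries and 28.6, 31 and 34.8 CPM in the CYT libraries (log2 difference 3.04 ± 0.15, adjusted p = 7.5e-10). The IL-1βlow libraries were each more than 5 times the highest CYT library. Txnip averaged 170 ± 8.92 CPM in untreated and 219 ± 49.5 CPM in IL-1βlow + CYT libraries.

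**Figure D2:**
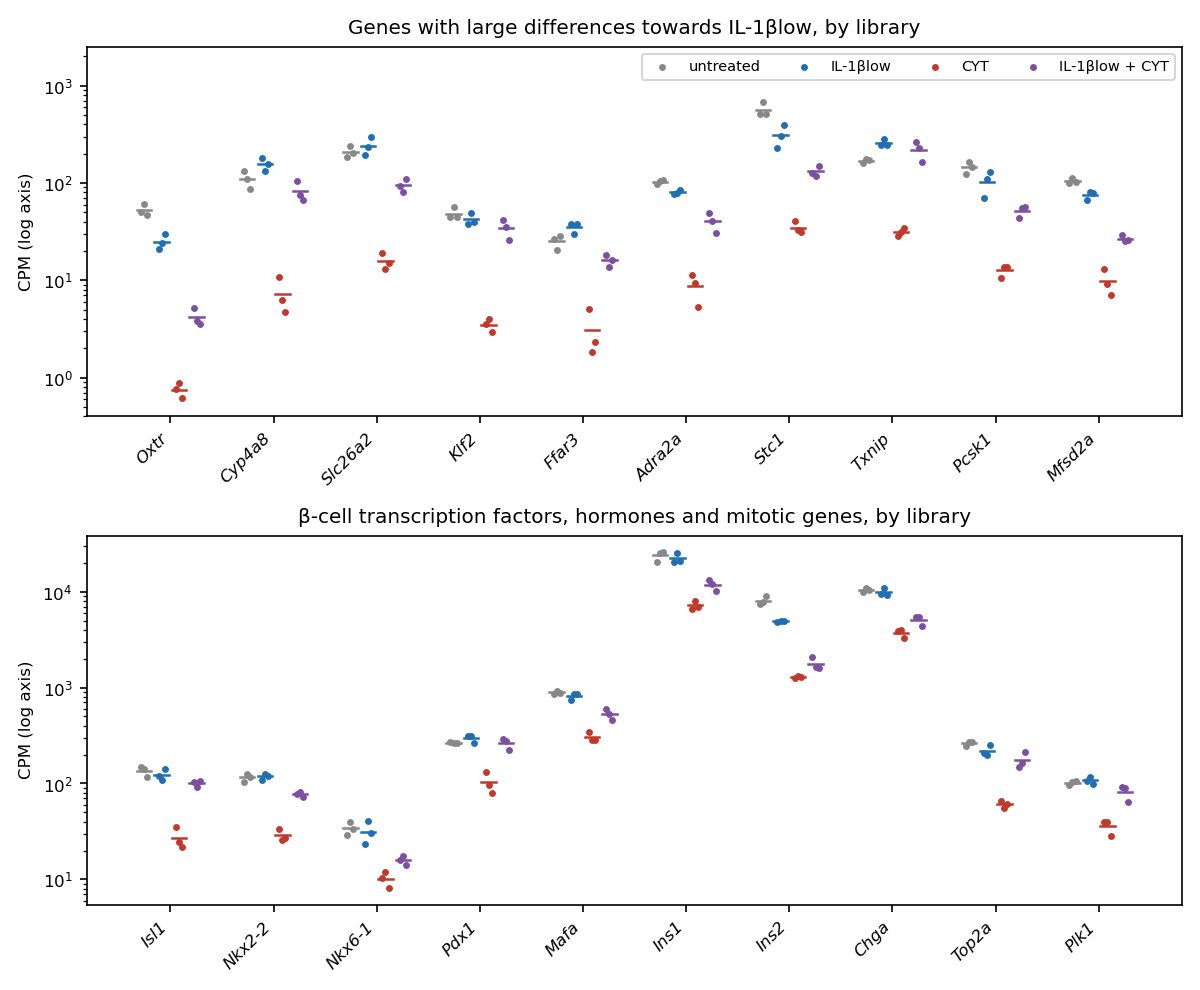
Level in CPM (log axis) in each of the 12 libraries, coloured by group, with the group mean as a bar. The upper panel shows 10 genes with large differences towards IL-1βlow, and the lower panel shows β-cell transcription factors, Ins1, Ins2, Chga and the mitotic genes Top2a and Plk1. For all 20 genes each IL-1βlow point lies above each CYT point, and most IL-1βlow points lie near the untreated ones, with Oxtr and Ins2 below them. Absence of overlap was required by the rule that named abundant genes with large differences, and it was met by 31.8% of all genes tested.

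Of 21 transcription factors of the β-cell tested, 8 passed as higher in IL-1βlow (38.1%) and 0 as higher in CYT, against 9.82% and 9.24% of all genes. The other 13 did not pass, and 2 of the 21 were negative, the lowest at -0.3. The median log2 difference was 0.76. Isl1, a LIM homeobox factor, was 121, 108 and 141 CPM in the IL-1βlow libraries and 35.2, 24.6 and 21.6 CPM in the CYT libraries (log2 difference 2.18 ± 0.16, adjusted p = 5.2e-08). Nkx2-2, a homeobox factor that maintains β-cell identity, was 109, 126 and 120 CPM in the IL-1βlow libraries and 33.3, 25.9 and 27.2 CPM in the CYT libraries (log2 difference 2.04 ± 0.11, adjusted p = 2e-09). Pdx1, a homeobox activator of the insulin genes, was 310, 315 and 265 CPM in the IL-1βlow libraries and 133, 96.2 and 79.5 CPM in the CYT libraries (log2 difference 1.53 ± 0.15, adjusted p = 1.1e-06). These factors did not overlap between the groups, and the IL-1βlow levels were close to untreated means of 136 ± 17.7 CPM for Isl1 and 266 ± 3.64 CPM for Pdx1. A similar size of difference was seen for further factors. Nkx6-1, another homeobox factor of mature β-cells, was 23.5, 40.4 and 30.7 CPM in IL-1βlow against 10.4, 11.9 and 8.13 CPM in CYT (log2 difference 1.63 ± 0.2, adjusted p = 7e-06). Mafa, which binds the insulin promoter in mature cells, was 743, 854 and 855 CPM in IL-1βlow against 341, 281 and 285 CPM in CYT (log2 difference 1.44 ± 0.11, adjusted p = 6.8e-08). Rfx6, a winged helix factor of the endocrine lineage, was 106, 91.9 and 111 CPM in IL-1βlow against 52.8, 35 and 47.7 CPM in CYT (log2 difference 1.19 ± 0.13, adjusted p = 2.1e-06). For Rfx6 the IL-1βlow + CYT mean of 121 ± 9.09 CPM was above the CYT mean of 45.2 ± 9.13 CPM. With glmTreat, 5 of the 8 remained. In bulk RNA, fewer cells that express a gene and less RNA per cell cannot be told apart.

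Hormone and prohormone processing genes followed the same direction, with 7 of 12 higher in IL-1βlow (58.3%) and 0 higher in CYT, against 9.82% and 9.24% of all genes, and a median log2 difference of 1.08. Ins1 was 20173, 25344 and 21155 CPM in the IL-1βlow libraries and 6624, 7965 and 7002 CPM in the CYT libraries (log2 difference 1.63 ± 0.14, adjusted p = 2.2e-07). Ins2, the other rat insulin gene, was 4779, 4987 and 4926 CPM in the IL-1βlow libraries and 1269, 1314 and 1302 CPM in the CYT libraries (log2 difference 1.92 ± 0.11, adjusted p = 4.8e-09). Ins1 and Ins2 are close in sequence, and the division of reads between them depends on the authors' counting. Ins2 also passed as lower in IL-1βlow than in untreated cells, which averaged 8097 ± 870 CPM, (log2 difference -0.73 ± 0.11, adjusted p = 0.0043 against untreated). Each IL-1βlow library was more than 2 times any CYT library for both insulin genes. Pcsk1, the convertase that starts proinsulin cleavage, was 69.5, 109 and 129 CPM in IL-1βlow against 10.5, 13.8 and 13.8 CPM in CYT (log2 difference 3.01 ± 0.21, adjusted p = 2.3e-08). Its inhibitor Pcsk1n was 597, 721 and 562 CPM in IL-1βlow against 211, 182 and 156 CPM in CYT (log2 difference 1.78 ± 0.14, adjusted p = 1.2e-07). Pam, which amidates peptide hormones, was 539, 703 and 691 CPM in IL-1βlow against 242, 240 and 230 CPM in CYT (log2 difference 1.44 ± 0.12, adjusted p = 1.8e-07). These processing genes did not overlap between the groups. Iapp, which encodes amylin, was 2333, 1901 and 2721 CPM in IL-1βlow against 1823, 914 and 1591 CPM in CYT and did not pass (log2 difference 0.68 ± 0.21, adjusted p = 0.013). Gcg, glucagon, is not a β-cell hormone and was 259, 155 and 215 CPM in IL-1βlow against 63.1, 24.2 and 24.6 CPM in CYT (log2 difference 2.49 ± 0.39, adjusted p = 7.3e-05).

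Of 20 secretory granule genes, 4 were higher in IL-1βlow (20%) and 1 was higher in CYT (5.0%), against 9.82% and 9.24% of all genes. Chga, chromogranin A, was 9410, 11001 and 9158 CPM in the IL-1βlow libraries and 3863, 3946 and 3299 CPM in the CYT libraries (log2 difference 1.41 ± 0.12, adjusted p = 1.5e-07). Sytl4, a granule tethering protein, was 568, 459 and 616 CPM in IL-1βlow against 231, 119 and 186 CPM in CYT (log2 difference 1.61 ± 0.2, adjusted p = 7.7e-06). Rab27a, its small GTPase partner, was 20.1, 22.4 and 19.9 CPM in IL-1βlow against 9.62, 6.99 and 9 CPM in CYT (log2 difference 1.28 ± 0.13, adjusted p = 1.2e-06) and was also lower in IL-1βlow than in untreated cells, (log2 difference -0.73 ± 0.12, adjusted p = 0.0073 against untreated). Syt13, a synaptotagmin that does not bind calcium, was 270, 286 and 281 CPM in IL-1βlow against 139, 115 and 112 CPM in CYT (log2 difference 1.2 ± 0.09, adjusted p = 8.8e-08). For all 4 the IL-1βlow libraries lay above the CYT libraries. Over the 20 granule genes this held for 13 and the reverse for 4, against 31.8% and 31.4% of all genes. The opposite direction was taken by Syt9, a calcium sensor of secretion, which was 37.4, 37.2 and 36.6 CPM in IL-1βlow against 101, 130 and 134 CPM in CYT (log2 difference -1.71 ± 0.1, adjusted p = 6.5e-09). Among 22 exocytosis genes, 3 were higher in IL-1βlow (13.6%, near the 9.82% of all genes) and 0 in CYT. They included the priming factor Cadps (log2 difference 1.37 ± 0.13, adjusted p = 4.9e-07) and the active zone scaffold Rimbp2 (log2 difference 1.34 ± 0.09, adjusted p = 2.7e-08). Snap25, a SNARE protein of vesicle fusion, was 64.9, 68.8 and 100 CPM in IL-1βlow against 43.7, 38.4 and 50.5 CPM in CYT and did not pass (log2 difference 0.82 ± 0.18, adjusted p = 0.0013).

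Of 25 G-protein-coupled and hormone receptors of the islet, 12 were higher in IL-1βlow (48.0%) and 5 were higher in CYT (20%), against 9.82% and 9.24% of all genes. The number higher in IL-1βlow was 8 with at least 10 counts in every library and 10 without a filter. For 2 of the 25 the lower group had 3 counts or fewer in every library. Adra2a, the adrenergic receptor that restrains insulin secretion, was 77.4, 79.2 and 84.8 CPM in the IL-1βlow libraries and 11.3, 9.44 and 5.32 CPM in the CYT libraries (log2 difference 3.22 ± 0.21, adjusted p = 1.7e-08). Gipr, the receptor of the incretin GIP, was 64.6, 68.6 and 97 CPM in IL-1βlow against 22.7, 22.4 and 24.8 CPM in CYT (log2 difference 1.72 ± 0.17, adjusted p = 9.4e-07). The receptor of the other incretin, Glp1r, was 76.6, 76.8 and 68.8 CPM in IL-1βlow against 62.7, 48 and 43.2 CPM in CYT and did not pass (log2 difference 0.53 ± 0.12, adjusted p = 0.0013). The incretin receptors thus differed in whether they passed, although the difference between them was not tested. Gpr119, a receptor for lipid amides, was 1.33, 1.72 and 0.802 CPM in IL-1βlow against 0, 0 and 0.153 CPM in CYT, at least 7.84-fold higher in IL-1βlow, a bound taken against 3 counts in each CYT library. The dopamine receptor Drd2 was 3.59, 3.56 and 3.33 CPM in IL-1βlow against 36.9, 28.6 and 28.5 CPM in CYT (log2 difference -3.16 ± 0.2, adjusted p = 8.2e-09). The glucagon receptor Gcgr was 11.5, 17.1 and 12.4 CPM in IL-1βlow against 50.6, 70.2 and 51.5 CPM in CYT (log2 difference -2.07 ± 0.22, adjusted p = 1.6e-06). Both of these were higher in every CYT library than in any IL-1βlow library. Outside this list, and named for their large differences, the short-chain fatty acid receptor Ffar3 was 37.8, 29.6 and 38.1 CPM in IL-1βlow against 5.11, 1.81 and 2.3 CPM in CYT (log2 difference 3.51 ± 0.28, adjusted p = 9.9e-08) and the melatonin receptor Mtnr1a was 12.5, 13.5 and 13.6 CPM in IL-1βlow against 2.44, 1.34 and 0.665 CPM in CYT (log2 difference 3.15 ± 0.29, adjusted p = 5.2e-07).

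Of 25 genes of glucose sensing and excitability, 6 were higher in IL-1βlow (24.0%, against 9.82% of all genes) and 3 were higher in CYT (12%, near the 9.24% of all genes). The sodium channel gene Scn3a was 132, 124 and 154 CPM in the IL-1βlow libraries and 37.4, 31.5 and 41.1 CPM in the CYT libraries (log2 difference 1.9 ± 0.16, adjusted p = 1.9e-07). Kcnk16, a potassium channel of β-cells, was 12.8, 7.85 and 7.96 CPM in IL-1βlow against 1.74, 0.933 and 0.46 CPM in CYT (log2 difference 3.2 ± 0.45, adjusted p = 3.3e-05). The groups did not overlap for either channel. Trpm5, a cation channel opened by calcium, was 3.03, 5.15 and 3.64 CPM in IL-1βlow against 0.652, 0.583 and 0.665 CPM in CYT (log2 difference 2.62 ± 0.28, adjusted p = 1.8e-06). Slc2a2, the glucose transporter GLUT2, was 397, 307 and 350 CPM in IL-1βlow against 471, 352 and 368 CPM in CYT and did not pass (log2 difference -0.18 ± 0.14, adjusted p = 0.3). Abcc8, the sulfonylurea receptor subunit, was 631, 689 and 602 CPM in IL-1βlow against 862, 882 and 827 CPM in CYT and did not pass (log2 difference -0.42 ± 0.08, adjusted p = 0.00046). The main glucose transporter and the channel subunit thus did not pass, while 3 other genes were higher in CYT. Kcnn3, a small conductance potassium channel activated by calcium, was 0.564, 0.675 and 1.23 CPM in IL-1βlow against 23.3, 16.8 and 20.7 CPM in CYT (log2 difference -4.63 ± 0.32, adjusted p = 2.5e-08). Gpd2, the mitochondrial glycerol phosphate dehydrogenase, was 157, 143 and 180 CPM in IL-1βlow against 61.1, 52.7 and 57.7 CPM in CYT (log2 difference 1.48 ± 0.1, adjusted p = 1.9e-08) and was the only 1 of 32 glycolysis and TCA cycle genes that was higher in IL-1βlow (3.1%, below the 9.82% of all genes), while 4 were higher in CYT (12.5%, near the 9.24% of all genes). Those 4 included the glycolytic genes Aldoa (log2 difference -1.16 ± 0.12, adjusted p = 1.3e-06) and Eno2 (log2 difference -1.13 ± 0.09, adjusted p = 1.2e-07).

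Genes of mitosis and the G2/M phase were higher in IL-1βlow as a group. Of 40 tested, 25 passed as higher in IL-1βlow (62.5%) and 0 as higher in CYT, against 9.82% and 9.24% of all genes, with a median log2 difference of 1.15. With glmTreat 11 passed. For all 40 the 3 IL-1βlow libraries lay above the 3 CYT libraries, against 31.8% of all genes tested. Top2a, the topoisomerase that untangles chromosomes, was 210, 197 and 251 CPM in the IL-1βlow libraries and 66.1, 55.1 and 60.6 CPM in the CYT libraries (log2 difference 1.86 ± 0.14, adjusted p = 4.2e-08). Mki67, the proliferation antigen Ki-67, was 297, 291 and 288 CPM in the IL-1βlow libraries and 120, 112 and 109 CPM in the CYT libraries (log2 difference 1.36 ± 0.09, adjusted p = 1.3e-08). Plk1, a mitotic kinase, was 107, 118 and 98.9 CPM in IL-1βlow against 40, 40 and 28 CPM in CYT (log2 difference 1.58 ± 0.15, adjusted p = 7.5e-07). Espl1, the protease that separates sister chromatids, was 77.6, 86.7 and 68 CPM in IL-1βlow against 26.7, 23.9 and 18.9 CPM in CYT (log2 difference 1.74 ± 0.14, adjusted p = 8.8e-08). The CYT levels of these 4 genes were similarly low in all 3 CYT libraries. Ccna2, a cyclin of S phase and mitosis, was 69.7, 68.3 and 78.5 CPM in IL-1βlow against 28.6, 24.9 and 22.6 CPM in CYT (log2 difference 1.51 ± 0.1, adjusted p = 1.1e-08). Ccnb1, the mitotic cyclin B1, was 79.1, 84.9 and 93.2 CPM in IL-1βlow against 35.5, 41.3 and 37.6 CPM in CYT (log2 difference 1.17 ± 0.09, adjusted p = 5.6e-08). The median of the list against untreated cells was -0.05 in IL-1βlow and -1.22 in CYT. With glmTreat 11 of the 40 were called. A smaller share of cells in mitosis and less mitotic RNA per cell cannot be told apart in these libraries.

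Of 43 DNA replication genes, 6 were higher in IL-1βlow (14%, near the 9.82% of all genes) and 1 was higher in CYT (2.3%, below the 9.24% of all genes). The median log2 difference was 0.67. For 35 of the 43 all IL-1βlow libraries lay above all CYT libraries and for 1 the reverse held, against 31.8% and 31.4% of all genes. The 1 gene higher in CYT did not pass without IL-1βlow replicate 3 or without CYT replicate 2. Leaving out CYT replicate 3 reduced the 6 to 3, and upper-quartile scaling raised them to 10. Rrm2, a subunit of ribonucleotide reductase, was 122, 116 and 146 CPM in the IL-1βlow libraries and 40.2, 30.7 and 29.9 CPM in the CYT libraries (log2 difference 1.93 ± 0.12, adjusted p = 7.4e-09). Dut, which removes dUTP, was 86.2, 81.5 and 78.4 CPM in IL-1βlow against 38.7, 30.3 and 23.4 CPM in CYT (log2 difference 1.41 ± 0.14, adjusted p = 1.2e-06), and the helicase subunit Mcm7 was 161, 172 and 141 CPM in IL-1βlow against 73.2, 72.7 and 54.5 CPM in CYT (log2 difference 1.24 ± 0.13, adjusted p = 1.3e-06). The helicase subunit Mcm2 was 204, 223 and 179 CPM in IL-1βlow against 161, 169 and 133 CPM in CYT and did not pass (log2 difference 0.39 ± 0.11, adjusted p = 0.0077).

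Promoter sequences of Mki67 and Top2a are shown because their group moved together and because CCAAT boxes (CCAAT) and the core of the cell cycle homology region (CHR, TTTGAA) are elements known from mitotic promoters. Each run is the 250 bases before the annotated start, 5′ to 3′ on the coding strand, from RefSeq on GRCr8, and capitals mark matches on either strand. In Mki67 (chr1:199952594-199952843, minus strand) CHR cores begin at -117 and -99 and CCAAT boxes at -189, -167, -142 and -94, and the last of these shares a base with the CHR core beside it. In Top2a (chr10:84473094-84473343, minus strand) a CHR core begins at -22 and CCAAT boxes at -239, -201, -161 and -57.
Mki67: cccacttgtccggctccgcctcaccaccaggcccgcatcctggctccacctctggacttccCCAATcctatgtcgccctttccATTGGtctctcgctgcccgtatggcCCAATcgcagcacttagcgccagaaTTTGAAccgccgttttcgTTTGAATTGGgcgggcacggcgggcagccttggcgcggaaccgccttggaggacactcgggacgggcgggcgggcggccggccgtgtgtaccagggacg
Top2a: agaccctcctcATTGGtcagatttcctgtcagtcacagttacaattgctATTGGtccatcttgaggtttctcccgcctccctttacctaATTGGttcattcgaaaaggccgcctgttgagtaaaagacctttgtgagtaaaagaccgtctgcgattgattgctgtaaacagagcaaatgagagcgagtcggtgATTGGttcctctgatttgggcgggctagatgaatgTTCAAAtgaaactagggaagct

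Promoters of 10073 tested genes were matched by symbol, and each was searched over 300 bases, 250 before to 50 after the start. The CHR core was found in 22 of 32 mitosis and G2/M promoters (68.8%), in 18.9% of 889 promoters of genes higher in IL-1βlow, in 8.9% of 936 promoters of genes higher in CYT and in 11.4% of all. CCAAT was found in 23 of the same 32 (71.9%), in 39.6%, 34.5% and 37.8%. Median GC content was 60.2% for the mitotic promoters, 59.3% and 61% for both directions and 61% for all. A match is a description of letters in the window and not evidence of binding. The other letters searched, CRE (TGACGTCA), homeobox core (TAATGA), MARE core (TGCTGA) and SRE (TCACCCCAC), were found in 2.7%, 6.1%, 18.3% and 1% of promoters higher in IL-1βlow, against 3.3%, 5.3%, 15.5% and 0.4% of all.

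Of 28 ER chaperones and degradation factors, 5 were higher in IL-1βlow (17.9%) and 2 in CYT (7.1%), against 9.82% and 9.24% of all genes. Creld2, an ER chaperone, was 91.3, 110 and 123 CPM in IL-1βlow against 38.1, 41.7 and 35.7 CPM in CYT (log2 difference 1.49 ± 0.12, adjusted p = 1e-07), and Edem1, a mannosidase-like protein of ER-associated degradation, was 234, 235 and 277 CPM in IL-1βlow against 120, 101 and 105 CPM in CYT (log2 difference 1.19 ± 0.09, adjusted p = 6.8e-08). The chaperone Hspa5 (BiP) was 1382, 1458 and 1804 CPM in IL-1βlow against 1003, 1017 and 1087 CPM in CYT and did not pass (log2 difference 0.58 ± 0.11, adjusted p = 0.00036). In contrast, the ER stress sensor Ern1 was 52.6, 55.5 and 49.4 CPM in IL-1βlow against 242, 290 and 288 CPM in CYT (log2 difference -2.38 ± 0.1, adjusted p = 2.5e-10) and Herpud1, an ER membrane protein induced by ER stress, was 89, 97 and 122 CPM in IL-1βlow against 239, 292 and 294 CPM in CYT (log2 difference -1.42 ± 0.13, adjusted p = 5e-07). The number of ER genes higher in CYT was 4 without CYT replicate 1. Of 24 cholesterol synthesis genes, 3 were higher in IL-1βlow (12.5%, near the 9.82% of all genes), and 1 without IL-1βlow replicate 1 or without CYT replicate 3. With upper-quartile factors there were 5. Stard4, a sterol carrier, was 86, 80.1 and 98.5 CPM in IL-1βlow against 30.1, 28.3 and 37.7 CPM in CYT (log2 difference 1.46 ± 0.13, adjusted p = 2.9e-07).

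Mitochondrially encoded genes varied widely between replicates. Of 13, 4 were higher in IL-1βlow (30.8%, against 9.82% of all genes). The number was 1 without CYT replicate 2, 8 without IL-1βlow replicate 2, 7 with upper-quartile factors and 0 with glmTreat. ND4, a subunit of respiratory complex I, was 1269, 890 and 2502 CPM in the IL-1βlow libraries and 678, 353 and 584 CPM in the CYT libraries (log2 difference 1.53 ± 0.33, adjusted p = 0.0011). Of 40 nuclear-encoded genes of the respiratory chain, 1 was higher in IL-1βlow (2.5%, below the 9.82% of all genes) and 0 in CYT. That gene was Ndufa4, a subunit of the terminal oxidase, which was 260, 248 and 238 CPM in IL-1βlow against 139, 96.8 and 82.3 CPM in CYT (log2 difference 1.23 ± 0.15, adjusted p = 7.1e-06). Of 13 heat shock genes, edgeR called 0 in either direction, DESeq2 called 0, and 1 and 3 were at an unadjusted p under 0.05 towards IL-1βlow and CYT.

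Several single signalling genes were higher in IL-1βlow. Il1r1, the signalling receptor of IL-1β, was 346, 308 and 432 CPM in the IL-1βlow libraries and 139, 110 and 178 CPM in the CYT libraries (log2 difference 1.35 ± 0.18, adjusted p = 1.5e-05), against an untreated mean of 404 ± 19.4 CPM. Irs2, an insulin receptor substrate, was 438, 535 and 526 CPM in the IL-1βlow libraries and 176, 168 and 162 CPM in the CYT libraries (log2 difference 1.57 ± 0.09, adjusted p = 2.1e-09). It was the 1 gene of 23 in insulin and IGF signalling that was higher in IL-1βlow (4.3%, below the 9.82% of all genes). The 1 gene higher in CYT (4.3%, below the 9.24% of all genes) did not pass without replicate 2 or replicate 3 of either group. Bcl2, which protects from apoptosis, was 10.2, 11 and 11 CPM in IL-1βlow against 5.11, 4.43 and 3.58 CPM in CYT (log2 difference 1.29 ± 0.15, adjusted p = 5.2e-06). Fos, a subunit of AP-1, was 1.54, 2.76 and 2.47 CPM in IL-1βlow against 0.326, 0.175 and 0.0511 CPM in CYT (log2 difference 3.57 ± 0.48, adjusted p = 2e-05). Fos was low in both groups, with the highest CYT library at a small fraction of the lowest IL-1βlow library. The immediate early gene Nr4a2, a nuclear receptor, was 3.18, 3.07 and 3.64 CPM in IL-1βlow against 1.47, 1.4 and 1.23 CPM in CYT (log2 difference 1.27 ± 0.21, adjusted p = 0.00011). Klf4, a zinc finger factor, was 5.18, 6.26 and 4.63 CPM in IL-1βlow against 1.9, 2.74 and 2.2 CPM in CYT (log2 difference 1.23 ± 0.26, adjusted p = 0.00089). None of these 6 genes, each of which had passed, overlapped between the groups, beside 31.8% of all genes tested with IL-1βlow above. Fn1, fibronectin, was 1529, 1724 and 1661 CPM in IL-1βlow against 664, 790 and 599 CPM in CYT (log2 difference 1.26 ± 0.11, adjusted p = 1.8e-07), and Gnas, which encodes the stimulatory G-protein subunit, was 5662, 6070 and 5564 CPM in IL-1βlow against 2687, 2658 and 2336 CPM in CYT (log2 difference 1.17 ± 0.1, adjusted p = 2e-07).

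A few genes differed between IL-1βlow and untreated cells as well. Among genes higher in IL-1βlow than in CYT, Cxcl12, a chemokine, was 12.6, 13.9 and 11.7 CPM in the IL-1βlow libraries and 2.66, 2.27 and 1.89 CPM in the CYT libraries (log2 difference 2.48 ± 0.19, adjusted p = 8e-08). It averaged 3.77 ± 0.64 CPM in untreated libraries, so that IL-1βlow was higher there too (log2 difference 1.75 ± 0.18, adjusted p = 0.0002 against untreated). Adamts16, a secreted protease, was 6.77, 7.42 and 7.9 CPM in IL-1βlow against 2.5, 3.03 and 2.15 CPM in CYT (log2 difference 1.52 ± 0.17, adjusted p = 3.5e-06) and exceeded untreated cells (log2 difference 1.42 ± 0.17, adjusted p = 0.00085 against untreated). Car2, carbonic anhydrase 2, was 41.3, 58.1 and 49.2 CPM in IL-1βlow against 18.5, 20.2 and 20 CPM in CYT (log2 difference 1.34 ± 0.15, adjusted p = 2.9e-06) and exceeded untreated cells (log2 difference 0.9 ± 0.15, adjusted p = 0.0068 against untreated). Slc16a10, an aromatic amino acid transporter, was 67.5, 60.3 and 74.4 CPM in IL-1βlow against 31.6, 23.5 and 27.4 CPM in CYT (log2 difference 1.29 ± 0.12, adjusted p = 6.6e-07) but was lower in IL-1βlow than in untreated cells (log2 difference -0.92 ± 0.12, adjusted p = 0.0013 against untreated). Gch1, which makes the cofactor of nitric oxide synthases, was higher in IL-1βlow than in untreated cells (log2 difference 0.69 ± 0.11, adjusted p = 0.007 against untreated) and did not pass against CYT (log2 difference 0.83 ± 0.11, adjusted p = 2.6e-05).

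Among genes higher in CYT, the complement gene C3 was 11.4, 7.97 and 8.2 CPM in the IL-1βlow libraries and 349, 313 and 362 CPM in the CYT libraries (log2 difference -5.21 ± 0.16, adjusted p = 2.1e-11). Its IL-1βlow level was above the untreated mean of 0.0788 ± 0.0343 CPM (adjusted p = 1.7e-07 against untreated). That mean is near the detection limit, so no exact fold over untreated cells is given for C3. Cd74, the invariant chain of MHC class II, was 12.4, 10.7 and 10.4 CPM in the IL-1βlow libraries and 429, 369 and 387 CPM in the CYT libraries (log2 difference -5.15 ± 0.13, adjusted p = 4.2e-12), with an untreated mean of 0.332 ± 0.229 CPM and a higher level in IL-1βlow (log2 difference 5.03 ± 0.23, adjusted p = 4.1e-08 against untreated). Both genes were thus present in every IL-1βlow library and much higher in every CYT library. Gadd45a, a growth arrest gene, was 35.5, 29 and 33.9 CPM in IL-1βlow against 120, 129 and 139 CPM in CYT (log2 difference -1.98 ± 0.1, adjusted p = 1.3e-09) and exceeded untreated cells in IL-1βlow (log2 difference 0.61 ± 0.1, adjusted p = 0.0085 against untreated). Of 25 receptors, 1 was higher and 1 was lower in IL-1βlow than in untreated cells, where 0.433% of all genes passed in either direction. The higher one was Adcyap1r1, the PACAP receptor (log2 difference 1.03 ± 0.16, adjusted p = 0.0043 against untreated), and it was higher still in CYT (log2 difference -2.26 ± 0.16, adjusted p = 3e-08). Of 25 excitability genes, 1 passed against untreated cells, beside the same 0.433% of all genes. It was the potassium channel Kcnn1, which was lower in IL-1βlow (log2 difference -1.38 ± 0.17, adjusted p = 0.00085 against untreated) and lower in IL-1βlow than in CYT (log2 difference -1.35 ± 0.17, adjusted p = 9e-06). Adcyap1r1 and Kcnn1 were chosen after their values were seen.

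**Figure D3:**
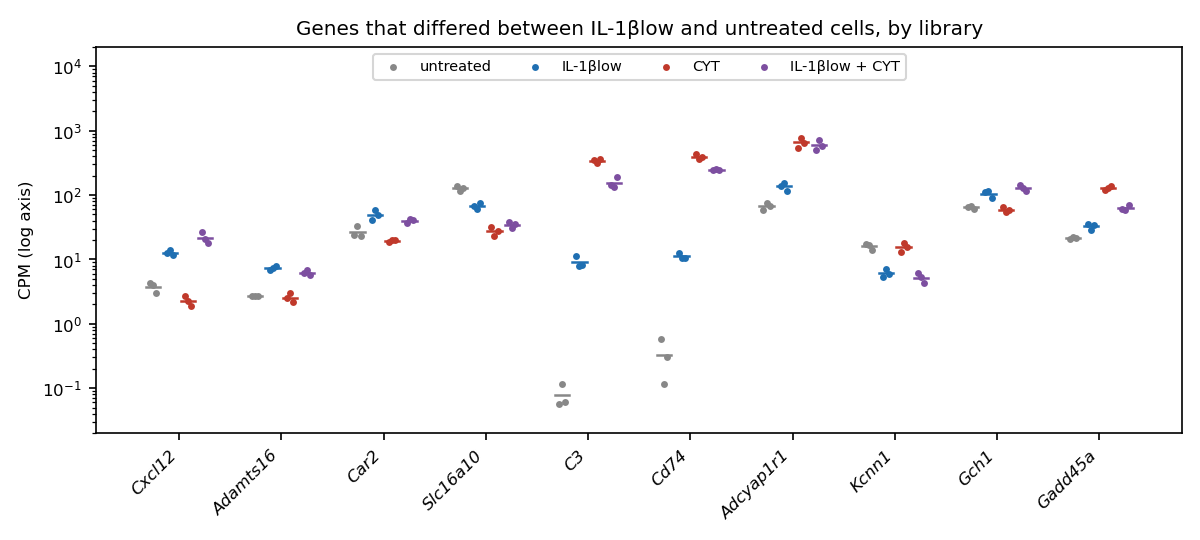
Level in CPM (log axis) in each of the 12 libraries for 10 genes that passed between IL-1βlow and untreated cells, coloured by group, with the group mean as a bar. Cxcl12 and Adamts16 were on average no higher in CYT than in untreated cells and higher in IL-1βlow, whereas C3 and Cd74 rose in IL-1βlow and stood far higher in CYT.

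Most genes of the NF-κB pathway were higher in CYT. Of 22 subunits, inhibitors and feedback genes, 16 were higher in CYT (72.7%) and 0 in IL-1βlow, against 9.24% and 9.82% of all genes, and the median log2 difference was -2. The subunit Nfkb2 was 34.4, 33.2 and 32.9 CPM in the IL-1βlow libraries and 283, 332 and 360 CPM in the CYT libraries (log2 difference -3.28 ± 0.1, adjusted p = 2.1e-11). The subunit Nfkb1 was 37.3, 35.5 and 34.2 CPM in IL-1βlow against 127, 122 and 155 CPM in CYT (log2 difference -1.92 ± 0.1, adjusted p = 1.2e-09). Neither subunit overlapped between the groups. Zc3h12a, an RNase that degrades inflammatory messages, was 6.97, 7.48 and 5.43 CPM in IL-1βlow against 127, 136 and 151 CPM in CYT (log2 difference -4.38 ± 0.12, adjusted p = 4.2e-12). Birc3, an inhibitor of apoptosis, was 4.05, 2.45 and 2.53 CPM in IL-1βlow against 42.1, 44.9 and 55.7 CPM in CYT (log2 difference -3.96 ± 0.22, adjusted p = 2.4e-09). The IL-1βlow libraries lay close to untreated levels of 34.9 ± 1.19 CPM for Nfkb1 and 5.35 ± 0.199 CPM for Zc3h12a, and the list's median against untreated cells was 0.1 in IL-1βlow and 2.3 in CYT. Upstream of NF-κB, 1 of 16 genes of the IL-1 receptor pathway was higher in IL-1βlow, Il1r1 (6.2%, below the 9.82% of all genes). With upper-quartile factors or without IL-1βlow replicate 3 the number was 2. In CYT 2 of the 16 were higher (12.5%, near the 9.24% of all genes), and 5 were higher without the filter on low counts, which left some of the 21 listed genes untested. The 2 higher in CYT were the kinase Irak2, 4.1, 3.93 and 4.94 CPM in IL-1βlow against 18.2, 19.5 and 27 CPM in CYT (log2 difference -2.32 ± 0.18, adjusted p = 9.1e-08), and the inhibitory Irak3, 1.79, 1.53 and 1.85 CPM in IL-1βlow against 5.49, 8.04 and 7.16 CPM in CYT (log2 difference -1.99 ± 0.2, adjusted p = 1.4e-06).

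Chemokines and cytokines had 15 of 18 members higher in CYT (83.3%), with Cxcl12 as the 1 member higher in IL-1βlow (5.6%), against 9.24% and 9.82% of all genes. Cxcl1, a neutrophil attractant, was 0, 0.0613 and 0.0617 CPM in IL-1βlow against 59.9, 63.9 and 98.4 CPM in CYT, at least 425-fold higher in CYT, taken against 3 counts in each IL-1βlow library. Cxcl2, a related attractant, was 0, 0.0613 and 0 CPM in IL-1βlow against 32.7, 32.6 and 48.1 CPM in CYT, at least 217-fold higher. These messages were thus at the detection limit in IL-1βlow cells. The cytokine Tnf was 0 CPM in each of the 3 IL-1βlow libraries against 8.64, 6.94 and 8.43 CPM in CYT, at least 45.9-fold higher. Ccl20, which attracts lymphocytes and dendritic cells, was 0 CPM in each of the 3 IL-1βlow libraries against 6.36, 5.36 and 8.54 CPM in CYT, at least 38.7-fold higher. Of 24 genes listed, 18 were tested, and 9 of these had 3 counts or fewer in every IL-1βlow library. The count of calls is therefore given as a description. The median log2 difference was -4.11 with such genes at their bound. A filter of at least 10 counts in every library left 6 of the 15 calls, since it drops genes under that count in any of the 12 libraries. Ltb, lymphotoxin β, is not in this list and was named for its large difference, 1.33, 0.859 and 0.802 CPM in IL-1βlow against 137, 176 and 235 CPM in CYT (log2 difference -7.48 ± 0.25, adjusted p = 3.2e-11).

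Interferon genes and antigen presentation were another large group on the CYT side. Irf1, an early interferon regulatory factor, was 44.5, 44.6 and 39.3 CPM in the IL-1βlow libraries and 195, 283 and 341 CPM in the CYT libraries (log2 difference -2.67 ± 0.16, adjusted p = 4.2e-09). Irf7, which drives type I interferon genes, was 6.31, 6.56 and 6.23 CPM in IL-1βlow against 68.7, 114 and 132 CPM in CYT (log2 difference -4.04 ± 0.21, adjusted p = 1.2e-09). The CYT libraries lay above the IL-1βlow libraries for both genes. The receptor gene Ifngr1 was 47.1, 49.6 and 45 CPM in IL-1βlow against 67.9, 86.4 and 83.4 CPM in CYT and did not pass (log2 difference -0.75 ± 0.1, adjusted p = 1.2e-05). Of 20 genes of this pathway, 8 were higher in CYT (40.0%, against 9.24% of all genes) and 0 in IL-1βlow. Of 33 antiviral and GTPase genes, 26 were higher in CYT (78.8%, against 9.24% of all genes) and 0 in IL-1βlow, with a median log2 difference of -2.85 with 5 genes at their bound. A filter of at least 10 counts in every library left 15 of these calls, so their number is given as a description. Rsad2, the antiviral enzyme viperin, was 0.359, 0.184 and 0.185 CPM in the IL-1βlow libraries and 44.4, 84.4 and 152 CPM in the CYT libraries (log2 difference -8.51 ± 0.53, adjusted p = 8e-09). Mx1, a dynamin-like GTPase, was 0.103, 0.429 and 0.494 CPM in IL-1βlow against 55.9, 93.4 and 152 CPM in CYT (log2 difference -8.23 ± 0.53, adjusted p = 1.2e-08). CYT replicate 1 was the lowest of the CYT libraries for Rsad2, Mx1 and Irf1, yet it lay above each IL-1βlow library.

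Of 21 MHC class I and antigen processing genes, 18 were higher in CYT and 0 in IL-1βlow, against 9.24% and 9.82% of all genes. For all 21 the CYT libraries lay above the IL-1βlow libraries, against 31.4% of all genes. B2m, the light chain of class I molecules, was 219, 250 and 219 CPM in the IL-1βlow libraries and 1024, 1037 and 1134 CPM in the CYT libraries (log2 difference -2.22 ± 0.1, adjusted p = 2.7e-10). The peptide transporter Tap1 was 25.4, 22.1 and 22.3 CPM in IL-1βlow against 143, 220 and 226 CPM in CYT (log2 difference -3.07 ± 0.16, adjusted p = 1.6e-09). The immunoproteasome subunit Psmb8 was 25, 21.9 and 18.1 CPM in IL-1βlow against 181, 221 and 216 CPM in CYT (log2 difference -3.25 ± 0.12, adjusted p = 5.1e-11). Of 12 MHC class II genes listed, 8 were tested, and these passed as higher in CYT. Since 4 of the 8 had 3 counts or fewer in every IL-1βlow library, and the filter of 10 counts left 1 call, the count is given as a description, beside the 9.24% of all genes. Ciita, the class II transactivator, was 0.154, 0.123 and 0 CPM in IL-1βlow against 31.1, 36.8 and 40.2 CPM in CYT, at least 207-fold higher in CYT. RT1-Da, a class II α chain, was 0.256, 0.245 and 0.247 CPM in IL-1βlow against 83.2, 57.5 and 60.7 CPM in CYT (log2 difference -8.03 ± 0.26, adjusted p = 2.1e-11). RT1-DMb, which loads peptides, was 0 CPM in each of the 3 IL-1βlow libraries against 48.4, 39.8 and 42.6 CPM in CYT, at least 250-fold higher. RT1 genes are close copies of each other, and the division of reads among them is uncertain. Of 9 complement genes, 4 were higher in CYT (44.4%, against 9.24% of all genes) and 1, C1qa, was higher in IL-1βlow (log2 difference 1.23 ± 0.25, adjusted p = 0.00077), a share of 11.1% that is near the 9.82% of all genes.

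Promoters of Irf1, Rsad2 and RT1-Da are shown as examples of 3 arms of the CYT response. In Irf1 (chr10:38417685-38417934, plus strand) the capitals mark a GAS element (TTCNNNGAA) at -142 and a κB match at -65. In Rsad2 (chr6:48788121-48788370, minus strand) they mark an ISRE core (GAAANNGAA) at -146. In RT1-Da (chr20:4515165-4515414, plus strand) they mark a CCAAT box, the inverted form of which is the Y box of class II promoters, at -49.
Irf1: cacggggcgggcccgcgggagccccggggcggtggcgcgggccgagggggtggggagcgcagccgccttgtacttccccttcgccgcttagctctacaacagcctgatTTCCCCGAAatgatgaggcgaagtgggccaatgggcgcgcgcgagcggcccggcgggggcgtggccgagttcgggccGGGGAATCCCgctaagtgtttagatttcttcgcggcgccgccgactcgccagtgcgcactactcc
Rsad2: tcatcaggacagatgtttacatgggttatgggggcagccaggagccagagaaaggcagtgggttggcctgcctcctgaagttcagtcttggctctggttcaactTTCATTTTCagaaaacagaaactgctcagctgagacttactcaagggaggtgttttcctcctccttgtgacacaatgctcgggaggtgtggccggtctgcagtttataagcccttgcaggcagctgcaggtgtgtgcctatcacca
RT1-Da: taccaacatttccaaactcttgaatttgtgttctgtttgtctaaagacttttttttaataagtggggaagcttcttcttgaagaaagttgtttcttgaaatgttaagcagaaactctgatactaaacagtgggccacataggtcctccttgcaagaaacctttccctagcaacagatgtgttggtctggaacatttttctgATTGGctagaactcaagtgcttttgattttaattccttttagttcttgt

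In the 300-base windows, the ISRE core was found in 19 of 24 antiviral promoters (79.2%), in 10.4% of promoters of genes higher in CYT, in 8% of those higher in IL-1βlow and in 7.2% of all. The GAS letters were found in 9 of the 24 antiviral promoters (37.5%), and in 8.4%, 6.1% and 6.7%. The κB consensus was found in 11 of 17 promoters of the NF-κB list (64.7%), and in 16.3%, 7.6% and 9.6%. CCAAT was found in 6 of 6 matched class II promoters, against 37.8% of all. The shares were not tested. Median GC content was 51.8% in the antiviral promoters, 64.3% in those of the NF-κB list and 50.2% in the class II promoters, against 61% in all.

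Of 12 nitric oxide and arginine genes, 4 were higher in CYT (33.3%, against 9.24% of all genes), 0 in IL-1βlow, and 8 did not pass. The list's median log2 difference was 0.02, with 6 members positive and 6 negative. Calls in favour of IL-1βlow came from edgeR's exact test, from upper-quartile factors and from the fit with the replicate block, each of which called 1. Nos2, the inducible nitric oxide synthase, was 0.0513, 0.0613 and 0 CPM in the IL-1βlow libraries and 412, 605 and 688 CPM in the CYT libraries, at least 3263-fold higher in CYT, taken against 3 counts in each IL-1βlow library. Ass1, which regenerates arginine from citrulline, was 17.5, 13.1 and 15.1 CPM in the IL-1βlow libraries and 341, 306 and 339 CPM in the CYT libraries (log2 difference -4.43 ± 0.14, adjusted p = 2.1e-11). The arginine transporter Slc7a1 was 78, 78 and 81.9 CPM in IL-1βlow against 326, 427 and 381 CPM in CYT (log2 difference -2.25 ± 0.12, adjusted p = 2.3e-09). Of 26 genes of the integrated stress response and amino acid supply, 22 were higher in CYT (84.6%, against 9.24% of all genes), 0 in IL-1βlow, and the median log2 difference was -1.71. Atf4, its central transcription factor, was 159, 180 and 164 CPM in the IL-1βlow libraries and 668, 721 and 708 CPM in the CYT libraries (log2 difference -2.06 ± 0.09, adjusted p = 3.2e-10). Ddit3, which encodes the pro-apoptotic factor CHOP, was 14.5, 14.7 and 17 CPM in the IL-1βlow libraries and 265, 319 and 314 CPM in the CYT libraries (log2 difference -4.28 ± 0.18, adjusted p = 2.1e-10). The 3 CYT libraries were close to each other for both factors. Trib3, a pseudokinase target of CHOP, was 3.08, 3.74 and 3.64 CPM in IL-1βlow against 188, 257 and 200 CPM in CYT (log2 difference -5.95 ± 0.35, adjusted p = 4.1e-09). Chac1, a glutathione-degrading enzyme, was 5.08, 5.77 and 5.8 CPM in IL-1βlow against 86.1, 100 and 85 CPM in CYT (log2 difference -4.03 ± 0.17, adjusted p = 2.5e-10). For all 26 genes the CYT libraries lay above the IL-1βlow libraries, against 31.4% of all genes tested. Of 20 aminoacyl-tRNA synthetases, 9 were higher in CYT (45%, against 9.24% of all genes) and 0 in IL-1βlow, led by Sars1 (log2 difference -2.27 ± 0.11, adjusted p = 4.7e-10) and Cars1 (log2 difference -1.99 ± 0.14, adjusted p = 2.3e-08).

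Of 19 antioxidant genes, 5 were higher in CYT (26.3%, against 9.24% of all genes) and 2 in IL-1βlow, Txnip among them (10.5%, near the 9.82% of all genes). Sod2, mitochondrial superoxide dismutase, was 106, 100 and 101 CPM in the IL-1βlow libraries and 604, 675 and 737 CPM in the CYT libraries (log2 difference -2.71 ± 0.11, adjusted p = 9.8e-11). Hmox1, heme oxygenase 1, was 33.8, 23.3 and 19.4 CPM in IL-1βlow against 221, 236 and 169 CPM in CYT (log2 difference -3.03 ± 0.21, adjusted p = 2.9e-08), and Keap1, the inhibitor of NRF2, was 67.2, 71 and 59 CPM in IL-1βlow against 96.7, 112 and 101 CPM in CYT and did not pass (log2 difference -0.65 ± 0.1, adjusted p = 4.4e-05). Of 22 BCL2 family, caspase and death receptor genes, 7 were higher in CYT (31.8%) and 1, Bcl2, in IL-1βlow (4.5%), against 9.24% and 9.82% of all genes. The death receptor Fas was 3.49, 3.37 and 3.7 CPM in IL-1βlow against 28.7, 37.4 and 43.8 CPM in CYT (log2 difference -3.38 ± 0.16, adjusted p = 7e-10). The pro-apoptotic gene Bid was 19, 20.5 and 21 CPM in IL-1βlow against 62.2, 77.8 and 77 CPM in CYT (log2 difference -1.84 ± 0.11, adjusted p = 6.6e-09). Bbc3, which encodes the pro-apoptotic PUMA, was 27.3, 26.1 and 24 CPM in IL-1βlow against 92.9, 110 and 123 CPM in CYT (log2 difference -2.07 ± 0.11, adjusted p = 1.6e-09). All 3 were higher in each CYT library than in any IL-1βlow library. Of 18 p53 targets, 6 were higher in CYT (33.3%, against 9.24% of all genes) and 0 in IL-1βlow, among them Cdkn1a, the cell cycle inhibitor p21, 34.4, 41.5 and 40.5 CPM in IL-1βlow against 94.3, 123 and 104 CPM in CYT (log2 difference -1.46 ± 0.11, adjusted p = 4.8e-08). Of 18 AP-1 and immediate early genes, 4 were higher in CYT (22.2%) and 3 in IL-1βlow (16.7%), against 9.24% and 9.82% of all genes. Junb was 16, 17.1 and 13.7 CPM in IL-1βlow against 100, 109 and 131 CPM in CYT (log2 difference -2.86 ± 0.12, adjusted p = 1.9e-10) and Myc was 34.9, 18.5 and 32.1 CPM in IL-1βlow against 101, 138 and 111 CPM in CYT (log2 difference -2.03 ± 0.25, adjusted p = 9.4e-06), opposite to Fos.

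Circadian clock genes were higher in CYT, with 12 of 17 passing in that direction (70.6%, against 9.24% of all genes), 0 in the other and a median log2 difference of -1.37. Nr1d1, the repressor REV-ERBα, was 16.7, 14.2 and 13.6 CPM in the IL-1βlow libraries and 180, 252 and 261 CPM in the CYT libraries (log2 difference -3.96 ± 0.15, adjusted p = 7.4e-11). Ciart, a clock repressor, was 4.31, 3.86 and 4.07 CPM in the IL-1βlow libraries and 47.7, 71.8 and 62.3 CPM in the CYT libraries (log2 difference -3.89 ± 0.2, adjusted p = 1.2e-09). Both repressors were more than 10 times as high in each CYT library as in any IL-1βlow library. Bhlhe40, a further repressor, was 54.6, 62 and 54.7 CPM in IL-1βlow against 256, 307 and 311 CPM in CYT (log2 difference -2.35 ± 0.13, adjusted p = 1.9e-09). Dbp, a clock output factor, was 83.8, 80.9 and 70.2 CPM in IL-1βlow against 238, 248 and 209 CPM in CYT (log2 difference -1.57 ± 0.09, adjusted p = 4e-09). Bmal1, the core activator, was 14.8, 15.3 and 14.1 CPM in IL-1βlow against 26.8, 34.2 and 40.1 CPM in CYT (log2 difference -1.19 ± 0.14, adjusted p = 3.9e-06), while its partner Clock was 51.6, 56.3 and 75.1 CPM in IL-1βlow against 68.3, 69.9 and 93.7 CPM in CYT and did not pass (log2 difference -0.34 ± 0.18, adjusted p = 0.12). Repressors and the activator were thus higher together in CYT. In untreated and IL-1βlow + CYT libraries Nr1d1 averaged 17.9 ± 1.53 CPM and 18.5 ± 1.74 CPM, and Ciart averaged 3.92 ± 0.803 CPM and 6.32 ± 1.31 CPM. The medium was renewed before CYT and also before the challenge of IL-1βlow + CYT cells, and the part of its renewal was not tested. With glmTreat 6 of the 12 were called.

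**Figure D4:**
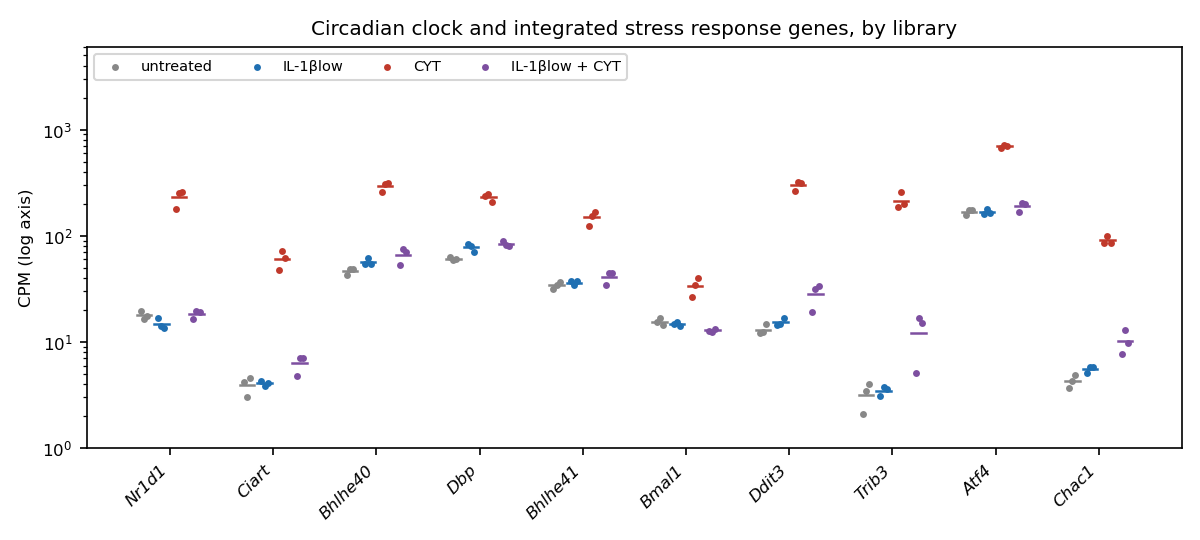
Level in CPM (log axis) in each of the 12 libraries for 6 circadian clock genes and 4 genes of the integrated stress response, coloured by group, with the group mean as a bar. All 3 CYT points lie above the IL-1βlow, untreated and IL-1βlow + CYT points for each gene, and the IL-1βlow points lie close to the untreated ones.

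**Figure D5:**
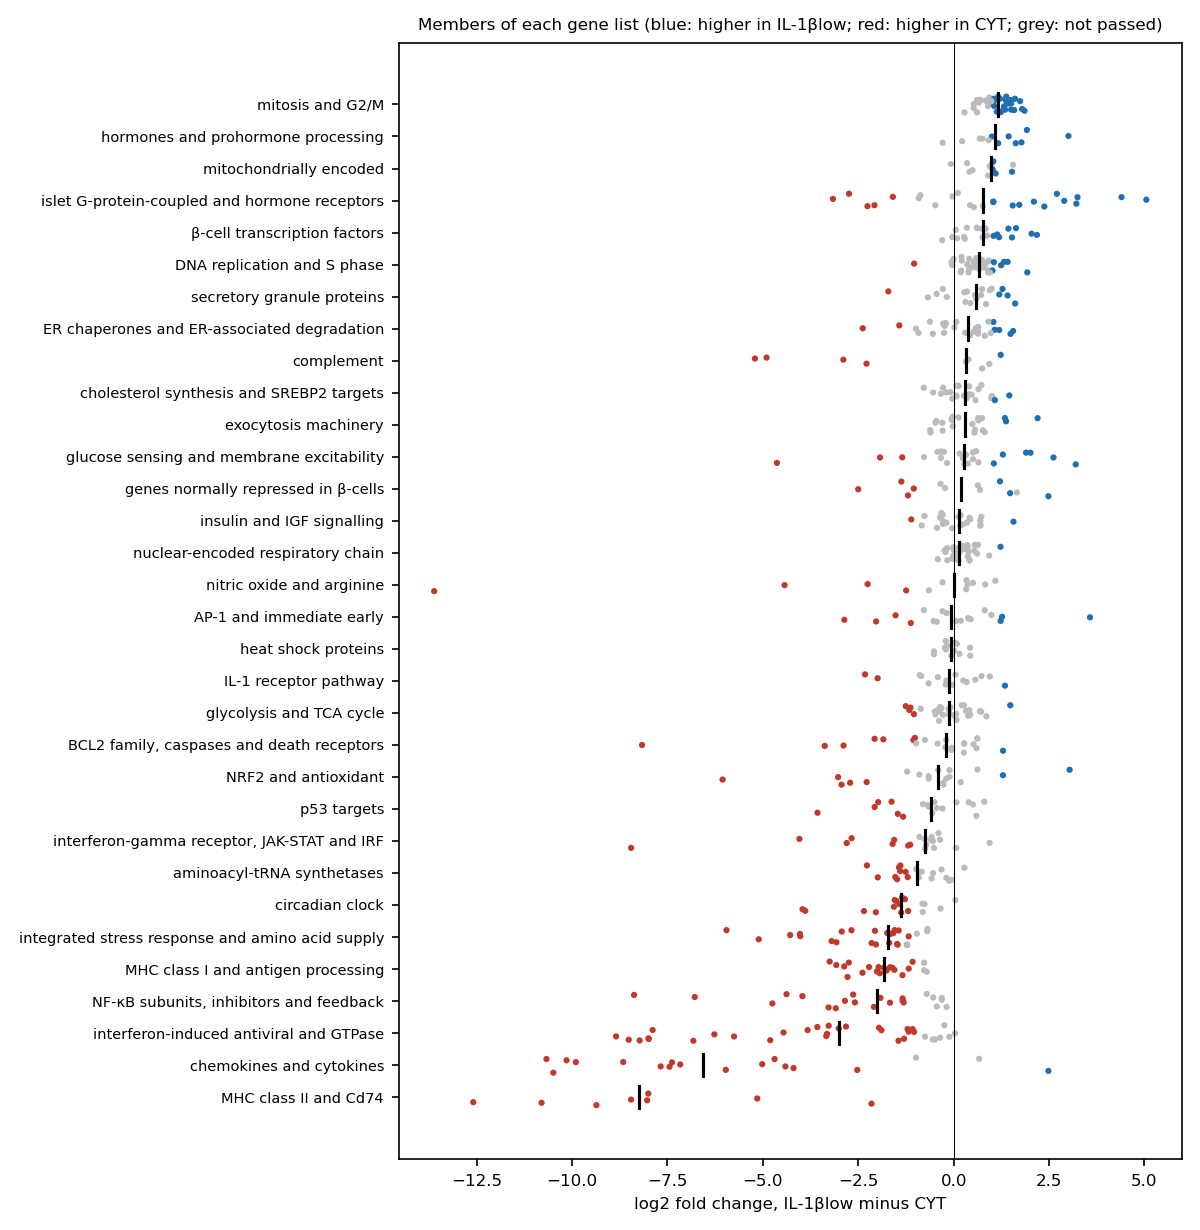
Log2 difference of IL-1βlow minus CYT (x axis) for each tested member of every gene list except the cell type markers, with the list's median as a black bar. Blue members were higher in IL-1βlow, red members higher in CYT, and grey members did not pass. Values of genes with 3 counts or fewer in every IL-1βlow library depend on the prior count of the fit. Mitosis and G2/M, hormones and β-cell transcription factors lie to the right, while MHC class II, chemokines, antiviral genes, NF-κB and the integrated stress response lie to the left. Of 12 genes normally repressed in β-cells, 6 were positive and 6 negative. Of these 12, 3 passed as higher in IL-1βlow (25%) and 4 as higher in CYT (33.3%), against 9.82% and 9.24% of all genes.

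Several named genes overlap another gene in the rat annotation, and without a stated strand setting their reads cannot be told apart from those of the neighbour. They include Cyp4a8, Klf2, Gipr, Plk1, Ddit3 and Nr1d1, which overlap Mcts1-ps1, Eps15l1, Eml2, Ern2, Mars1 and Thra, respectively.

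Where a list above had 0 members passing in a direction with edgeR's quasi-likelihood test, DESeq2 also called 0. An unadjusted p under 0.05 in such a direction was met by 1 of 21 β-cell transcription factors, 1 of 12 hormone and processing genes, 6 of 22 exocytosis genes, 2 of 24 cholesterol synthesis genes and 4 of 40 nuclear-encoded respiratory chain genes, all towards CYT. Towards IL-1βlow it was met by 6 of 12 nitric oxide and arginine genes, of which the exact test called 1, and by 1 of 20 interferon pathway genes, 1 of 20 aminoacyl-tRNA synthetases and 4 of 18 p53 targets. It was met by 0 members of the mitosis and G2/M, mitochondrially encoded, NF-κB, antiviral, MHC class I, MHC class II, integrated stress response and circadian clock lists.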

How the data were processed

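Bulk polyA RNA-seq of INS-1E cells was analysed from a table of raw counts per gene that the authors deposited, 12 libraries in 4 groups of 3. Per the labels and methods, RNA was extracted with TRIzol and TruSeq libraries were prepared. The authors checked reads with FastQC, trimmed them, aligned them to mRatBN7.2 and counted them with featureCounts, in R 4.3.3. The strand setting is not given in the sources used here. Groups follow the sample titles, which number biological replicates. The titles do not say more about their origin, so that p-values measure the spread between these libraries.

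Genes with CPM above 1 in at least 2 of the 12 libraries were kept. CPM values use library sizes scaled by TMM factors. All 12 libraries entered 1 edgeR 4.0.16 quasi-likelihood fit (glmQLFit and glmQLFTest, R 4.3.3, 8 residual degrees of freedom), and IL-1βlow was contrasted with CYT. This replaced the study's exact test, which was run as an alternative. P-values were adjusted by Benjamini-Hochberg over 14324 genes. A standard error is the log2 difference over the square root of F. A fold against a group at 3 counts or fewer in every library is a lower bound taken against 3 counts per library. The 6 libraries held 15868003 to 19488861 counts, and bounds cover counting error only.

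Alternatives were other size factors, DESeq2 1.42.0, other filters, a replicate block and leaving out each library. Every pair of replicates differed beyond counting error, with chi-square values of 10.4 to 25 per degree of freedom. Deviations from group means of same-numbered IL-1βlow and CYT libraries correlated at 0.131, 0.446 and 0.411 across genes. No shared culture of same-numbered libraries is stated. The main fit, which gave the standard errors and p-values in the results, did not pair the libraries. Only the alternative with the replicate block paired them.

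Members, gene lists and motifs were chosen with earlier results of these data known. Named genes were the 20 and 10 largest differences towards IL-1βlow and CYT among abundant genes that passed without overlap, leading and largest members of each list, genes that also differed most from untreated cells and the most abundant genes higher in IL-1βlow. Not all of them are printed. Promoters came from RefSeq (GRCr8), matched by symbol, and gene overlaps were read from the same assembly.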

Additional observations from a re-analysis of the deposited data

How the results depend on the processing

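The 3 counts (2731 genes that passed, 1407 higher in IL-1βlow and 1324 higher in CYT) stayed within 1.5 times of these values under most settings. They were 2736, 1377 and 1359 with RLE factors, 2869, 1693 and 1176 with upper-quartile factors, 2753, 1398 and 1355 with DESeq2 and 2871, 1520 and 1351 with edgeR's exact test. Upper-quartile factors moved the median log2 difference of all genes from 0.022 to 0.123. Without a filter the counts were 3174, 1586 and 1588, with at least 10 counts in every library 2112, 1049 and 1063, and with only the 6 libraries compared 2703, 1331 and 1372. The fit with the replicate number as a block, which pairs the libraries, gave 2835, 1493 and 1342 and changed the call of 0 named genes. Leaving out 1 library at a time gave 2463 to 2876, 1142 to 1396 and 1258 to 1480. Counts moved further with glmTreat, to 1222, 456 and 766, and with an adjusted p under 0.05 and no minimum, to 8363, 4178 and 4185, as those rules are stricter and looser by construction. All 131 named genes kept their sign under each setting that tested them. Of the 120 that passed, 25 were tested and lost their call, all with glmTreat. Genes dropped by a filter were not counted as lost, such as Tnf with at least 10 counts in every library. With glmTreat, β-cell transcription factors higher in IL-1βlow numbered 5, mitotic genes 11, granule genes 2, ER genes 2, replication genes 1, cholesterol genes 1 and mitochondrially encoded genes 0, and higher in CYT were 0 glycolysis and 6 clock genes. A filter of at least 10 counts left 15 antiviral, 1 MHC class II, 2 complement and 3 antioxidant calls towards CYT, since it drops genes under 10 counts in any of the 12 libraries. With 3 libraries per group, genes of a few counts carry wide errors.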
